A study of Canis lupus familiaris with 77 samples.

Results

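Brain was set against every other tissue of a dog miRNA atlas, miRNA by miRNA and in both directions. The 5 samples labelled brain were compared with the 71 samples of the 15 other tissues, out of 76 libraries used. These were bone marrow, duodenum, heart, ileum, jejunum, kidney, liver, lung, pancreas, plasma, skeletal muscle, testis and thymus with 5 samples each, colon with 4 and sciatic nerve with 2. All samples came from untreated male Marshall beagles at 10 months of age, which were perfused with phosphate-buffered saline so that less blood stayed in the organs. The brain RNA was extracted from whole tissue homogenate, so it mixes neurons, glia, vessels and any choroid plexus or meninges in the piece taken, and the brain region is not given in the sources used here. In such bulk samples fewer cells of a type and less RNA per cell cannot be told apart. Which samples came from the same dog is not labelled and nothing was paired, and the methods describe the sciatic nerve RNA in differing ways, in part as pooled, so whether its 2 samples are separate dogs is not settled. The p-values given here therefore measure only the spread between these samples.

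miRNAs are short RNAs cut from hairpin precursors that guide a silencing complex to messenger RNAs. Each arm of a hairpin can give a mature miRNA, named 5p or 3p, and many miRNA genes lie in clusters that are transcribed together. In mammalian brain, miR-124, miR-9 and miR-128 are known as neuronal miRNAs, miR-219 and miR-338 as miRNAs of myelinating oligodendrocytes, and the imprinted DLK1-DIO3 region as a large source of miRNAs expressed in neurons. miRNAs encoded inside the HOX gene clusters are in contrast known from the trunk, the spinal cord and the hindbrain. Names beginning with cfa mark dog annotation, and names beginning with hsa or rno mark loci found in the dog genome through human or rat sequences.

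The measurement was miR-seq, the sequencing of small RNA, and levels are given as RPM, the reads of an miRNA per 1000000 reads on miRNAs in its library. The brain libraries held 785857, 3217077, 2036178, 1475657 and 2301839 reads on miRNAs in Brain 1 to 5, within the 157871 to 7896424 reads of the other libraries. A count of 0 in them allows at most 3 reads, or 0.933 to 3.82 RPM, and this limit covers counting error only. Of 650 miRNAs detected in the atlas, 551 had a read in at least 1 brain sample, and single brain samples held 456 to 519. The 10 most abundant miRNAs took 55.2 to 69.1% of the reads of a brain library (median 58.4%). In the 15 other tissues the median share was 66.3 to 86.1%, so brain reads were spread over more miRNAs. Spearman correlations across miRNAs, which are not independent replicates, were 0.946 to 0.969 among Brain 1, 2, 4 and 5 and 0.919 to 0.926 for the pairs with Brain 3, so Brain 3 stood apart from the others. The label was checked against neuronal markers. The summed neuronal miRNAs reached 52058 to 115909 RPM in the brain samples and 277 to 5602 RPM elsewhere.

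Of 480 miRNAs with enough reads for a test, 217 were higher in brain than in the mean of the other tissues, which is 45.2%, and 135 were lower, which is 28.1% (edgeR quasi-likelihood test, Benjamini-Hochberg adjusted p under 0.05). Together 73.3% of the tested miRNAs differed from the other tissues, and the members of each group below are to be read against that background. The log2 fold change (brain over the mean of the other 15 tissues, each with equal weight) had a median of 0.13 over all miRNAs. A stricter criterion, a mean more than 5 times that of the 71 other samples, a rank-sum adjusted p under 0.05 and a brain median above 100 RPM, called 76 of 650 detected miRNAs enriched in brain (11.7%). Its mirror image called 26 depleted (4.0%). Each of the 76 enriched miRNAs was also higher by edgeR. Of the 26 depleted, 23 were lower, cfa-miR-34c and hsa-miR-34b-3p were higher, and rno-miR-16-3p was not called. For the pair that was higher by edgeR, testis medians were 49237 and 992 RPM, and the rank-sum criterion uses the mean over samples while edgeR uses the mean of tissues on the log scale.

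All 5 brain samples lay above all 71 other samples for 44 of the 172 miRNAs with a brain median above 100 RPM (25.6%). The opposite arrangement held for cfa-miR-10a alone, 1 of 227 miRNAs with a median above 100 RPM in another tissue (0.441%). In a plot of the means, the miRNAs called higher form a broad band that reaches far above the diagonal. The balance of calls depended on the scaling. With DESeq2 size factors in place of TMM 209 were higher and 140 lower, and with library sizes alone 271 were higher and 64 lower, with the median of all miRNAs moved by 1.09 on the log2 scale. The share of higher calls among all calls was 61.6% with TMM, 80.9% with library sizes, 51.0% when the 71 samples formed 1 group and 50.9% with DESeq2. RPM carries no such scaling, and with RPM divided by the TMM factors 41 miRNAs were enriched and 53 depleted.

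**Figure D1:**
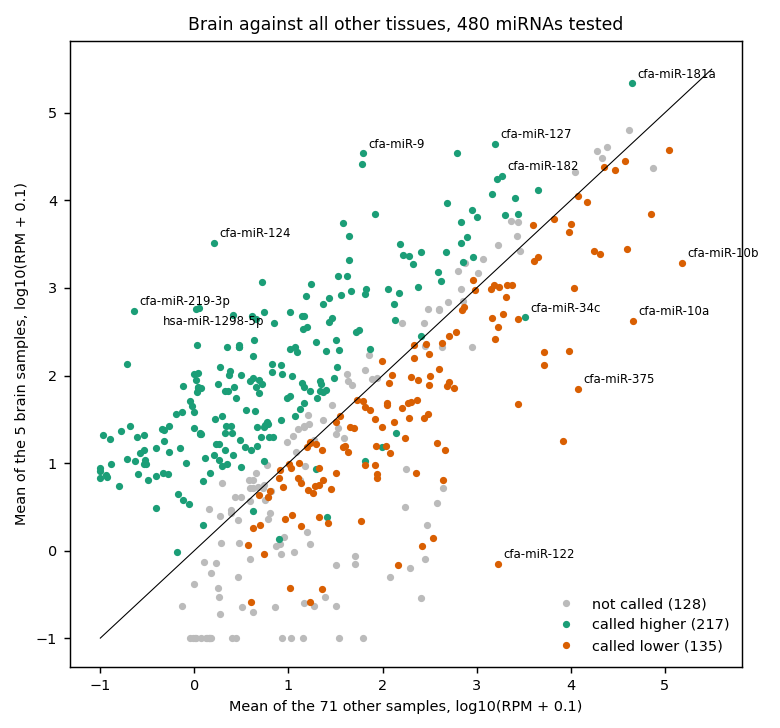
Mean RPM in the 5 brain samples (vertical axis) against mean RPM in the 71 other samples (horizontal axis), both as log10(RPM + 0.1), for the 480 miRNAs tested, with a line of equality. Points are coloured by the edgeR call, 217 higher, 135 lower and 128 not called. In it cfa-miR-124, cfa-miR-219-3p and cfa-miR-9 lie far above the line and cfa-miR-10a, cfa-miR-10b and cfa-miR-122 far below it.

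A limit of the edgeR comparison concerns miRNAs with no reads in a whole tissue. Among the 480 tested, 183 had at least 1 other tissue without a read, and the fitted mean over tissues is then unstable. Of the 128 miRNAs not called, 66 were of this kind, among them several that were nearly absent from brain. Lower calls numbered 139 at an unadjusted p under 0.05, 151 with limma on log2 CPM (counts per 1000000 reads), 153 with the other samples as 1 group and 170 with DESeq2. Fitted fold changes of this kind also include those of cfa-miR-124, hsa-miR-9-3p, hsa-miR-128-2-5p, cfa-miR-134, cfa-miR-137, cfa-miR-138a, cfa-miR-212, cfa-miR-219-3p, hsa-miR-1298-5p, hsa-miR-431-3p and cfa-miR-105a. They depend on how zeros are treated, so the levels of these miRNAs in each brain sample are given. A miRNA read almost only in brain passes the filter through its brain reads, so its higher call is no separate support.

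miRNAs of neurons were higher in brain as a group. All 25 tested miRNAs of the neuronal list were higher in brain and none was lower, with a median log2 fold change of 5.92. With DESeq2 22 of them were called higher, at a median of 5.43. With the other samples not split by tissue 23 were, at a median of 4.77. With limma and with library sizes alone all 25 were higher, at medians of 4.55 and 7.16. The wider list of neural miRNAs had 42 of 43 higher and a median of 5.24. For this list 38 were higher with DESeq2 and 37 with the other samples not split by tissue, at medians of 4.60 and 4.10. Limma called 41 higher and library sizes alone 43. Of the 27 neuronal miRNAs detected, hsa-miR-218-2-3p and rno-miR-137-5p had too few reads for a test. These 2 lists share members, and they were drawn up with the high levels of several members in these brain samples already known.

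cfa-miR-124, which represses non-neuronal transcripts in neurons, had 2971, 2466, 4442, 4574 and 2067 RPM in Brain 1 to 5. Among all other samples the highest level was 8.56 RPM, in a duodenum sample. The brain samples thus varied little beside the gap that separated them from every other sample (log2 fold change 10.86, SE 0.35, edgeR adjusted p = 5.06e-36). The brain median was 404 times the median of duodenum, the next tissue. No read fell on it in any sample of 2 tissues. The opposite arm, hsa-miR-124-5p, was far less abundant, with 22.9, 25.2, 22.6, 49.5 and 7.82 RPM (adjusted p = 1.83e-11, edgeR), and a duodenum sample reached 81.3 RPM, above every brain sample. With the other samples as 1 group hsa-miR-124-5p was not called.

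cfa-miR-9, a regulator of neural progenitors and neurons, was more abundant, at 38322, 38121, 40348, 35339.5 and 21762 RPM. Brain 5 was the lowest and the other brain samples were close together, while the highest other sample, from sciatic nerve, had 629.6 RPM (log2 fold change 9.02, SE 0.25, edgeR adjusted p = 1.18e-42). Its other arm hsa-miR-9-3p had 742, 462, 527, 819 and 304 RPM and at most 5.42 RPM in any other sample (log2 fold change 8.81, SE 0.25, edgeR adjusted p = 7.25e-37). Both arms therefore separated brain from the rest without overlap.

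cfa-miR-128, which dampens neuronal excitability, had 49434, 34047, 23306, 48333 and 18666 RPM. Its lowest brain sample, Brain 5, still exceeded the highest other sample, 5216 RPM, in a thymus sample, and of the miRNAs of this list it was the most widely detected outside brain, with at least 113 RPM in every library (log2 fold change 5.42, SE 0.22, edgeR adjusted p = 9.85e-34). The 2 precursors can be told apart by their other arm. hsa-miR-128-1-5p had 697, 628, 80.5, 569 and 408 RPM and hsa-miR-128-2-5p had 77.6, 58.4, 70.2, 60.3 and 56.9 RPM. The first was lowest in Brain 3 by a wide margin while the second varied little, and both were higher in brain by edgeR (log2 fold changes 4.16 and 7.39, SE 0.23 and 0.42). The larger value depends on how zeros are treated, since 9 of the other tissues had no read of hsa-miR-128-2-5p.

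cfa-miR-132 and cfa-miR-212 come from 1 primary transcript that is induced by neuronal activity. cfa-miR-132 had 5926, 5698, 486, 5525 and 2220.0 RPM, and no other sample exceeded 129.7 RPM (log2 fold change 5.55, SE 0.21, edgeR adjusted p = 3.95e-35). cfa-miR-212 had 672, 511, 38.3, 857 and 398 RPM against at most 13.9 RPM elsewhere (log2 fold change 7.21, SE 0.29, edgeR adjusted p = 5.19e-32). In both, Brain 3 was far below the other brain samples and still above all 71 other samples. Their further strands hsa-miR-132-5p (785, 645, 72.7, 693 and 223 RPM) and hsa-miR-212-3p (882, 714, 71.2, 718 and 289.8 RPM) had the same lowest samples, Brain 3 and then Brain 5.

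cfa-miR-138a, a regulator of dendritic spines, had 7424, 6594, 1206, 9317 and 3283 RPM and at most 327 RPM elsewhere, in sciatic nerve (log2 fold change 7.26, SE 0.31, edgeR adjusted p = 2.41e-31). cfa-miR-137, which acts on synaptic transcripts, had 162, 103, 0.982, 238 and 34.8 RPM. Its level in Brain 3 rests on 2 reads and lies inside the range of the other tissues, whose highest sample had 8.23 RPM, so that the groups overlap in this 1 sample (log2 fold change 6.68, SE 0.39, edgeR adjusted p = 4.12e-22). The near-identical cfa-miR-138b may share reads with cfa-miR-138a and is not read separately.

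The miR-129 sequences were led by Brain 4. hsa-miR-129-2-3p had 940.4, 779, 702, 2846 and 626 RPM with a maximum of 82.0 RPM outside brain, in testis (log2 fold change 7.52, SE 0.33, edgeR adjusted p = 5.07e-32). cfa-miR-129 had 1129, 1343, 627, 2866 and 827 RPM and overlapped the other tissues at its lower end, because 1 bone marrow sample reached 651 RPM. cfa-miR-153, encoded in introns of receptor-type phosphatase genes of secretory granules, had 615, 313, 540.2, 352 and 210.3 RPM against a median of 238 RPM in pancreas, the next tissue (log2 fold change 4.71, SE 0.28, edgeR adjusted p = 9.42e-25). cfa-miR-218, encoded in introns of SLIT genes, had 1218, 1072, 798, 1433 and 327 RPM against at most 270.1 RPM elsewhere. The differences of cfa-miR-153 and cfa-miR-218 were smaller than those of cfa-miR-124 and cfa-miR-9, with pancreas highest among the other samples for the former and lung for the latter.

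**Figure D2:**
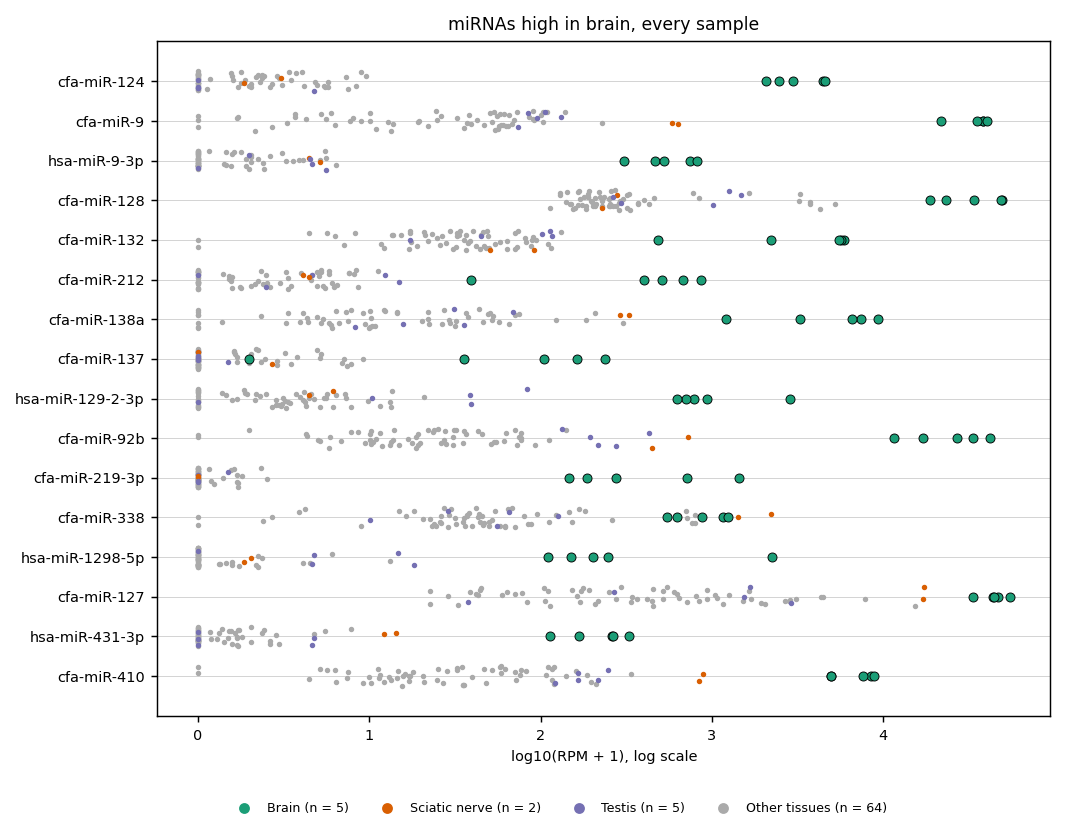
Level of 16 miRNAs high in brain in every sample, as log10(RPM + 1) on the horizontal axis (a log scale), with 1 row per miRNA and points for brain, sciatic nerve, testis and the 64 samples of the other tissues. Brain points lie to the right of all others for cfa-miR-124 and cfa-miR-9, cfa-miR-137 has 1 brain sample at 0.982 RPM among the other tissues, and sciatic nerve exceeds brain for cfa-miR-338.

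Other neural miRNAs were higher in brain with more or less overlap. cfa-miR-92b, which shares its seed with miR-25 and miR-92a and is known from neural progenitors, had 33554, 27082, 11554, 17025 and 41841 RPM, with at most 722 RPM elsewhere (log2 fold change 8.62, SE 0.34, edgeR adjusted p = 1.61e-34). cfa-miR-149, encoded in an intron of the glypican gene GPC1, had 1063, 1121, 164, 2533 and 711 RPM and overlapped sciatic nerve in Brain 3. cfa-miR-885, from an intron of the calcium pump gene ATP2B2, had 875, 796, 885, 1412 and 231 RPM, and 1 liver sample at 338 RPM exceeded Brain 5. cfa-miR-874 reached 765 ± 211 RPM (SD, n = 5) with kidney next at a median of 138 RPM, and all brain samples lay above all others. cfa-miR-7, a miRNA of neurons and endocrine cells, had 559, 327, 49.1, 224 and 117 RPM and overlapped bone marrow, where 1 sample reached 357 RPM. By edgeR the log2 fold changes of these 5 were 8.62, 5.25, 5.65, 4.19 and 3.39, the smallest of them with an adjusted p of 1.09e-19.

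hsa-miR-935, from an intron of the calcium channel subunit gene CACNG8, was named after its values were seen. It had 90.3, 107, 27.5, 392 and 57.3 RPM in brain and no more than 2.06 RPM elsewhere, where no library held more than 3 reads. Its brain mean was at least 29.5 times the mean level of 3 reads in the other libraries. The brain median was under 100 RPM, so it was not among the 76 enriched miRNAs.

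Of the 6 miRNAs of the oligodendrocyte and myelin list, 5 were higher in brain and 1 was not called, with a median log2 fold change of 3.35. With the other samples as 1 group 3 were higher. cfa-miR-219-3p had 186, 276, 145, 712 and 1435 RPM, while no other sample exceeded 1.54 RPM (log2 fold change 10.66, SE 0.32, edgeR adjusted p = 5.14e-34). Brain 5 was the highest and Brain 3 the lowest, and no read fell on it in 5 of the other tissues. Fewer reads fell on the entry cfa-miR-219-5p, which had 8.91, 8.08, 10.8, 46.1 and 24.3 RPM, while bone marrow samples reached 41.8 RPM. A further entry, cfa-miR-219-5p/hsa-miR-219b-3p, was called higher as well, and the median log2 fold change of these 3 entries was 4.79. cfa-miR-219-5p was called higher by edgeR at a log2 fold change of 1.05, and not without Brain 4 or Brain 5, at 0.69 and 0.75.

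cfa-miR-338, from an intron of AATK, behaved differently. It had 621, 544, 1159, 879 and 1236 RPM in brain, and both sciatic nerve samples lay above the highest brain sample, with a median of 1811 RPM and up to 2199 RPM. hsa-miR-338-5p had 127, 113, 121, 303 and 283 RPM in brain and a median of 629 RPM in sciatic nerve. Both were higher in brain than in the mean of the other tissues (log2 fold changes 2.85 and 3.85, edgeR adjusted p = 6.72e-14 and 2.43e-21), although cfa-miR-338 was not called with the other samples as 1 group. The sciatic nerve is rich in Schwann cells, the myelinating cells of the peripheral nervous system. hsa-miR-219a-1-3p had 12.7, 6.53, 13.8, 5.42 and 8.25 RPM and was the member not called (log2 fold change -0.25, SE 0.31, edgeR adjusted p = 0.513).

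The largest group that was higher in brain came from the DLK1-DIO3 imprinted region, whose miRNAs are made from the maternal chromosome. Of 67 sequences detected, 53 were tested, 51 of these were higher in brain, and cfa-miR-493 and hsa-miR-493-5p were not called. The median log2 fold change was 4.96, with a range from 0.12 to 7.33, and with limma the median was 3.19. The count of higher calls was 40 of 53 with DESeq2 and 49 with the other samples as 1 group. The summed level was 79614, 77134, 57992, 85333 and 61792 RPM in Brain 1 to 5. No other sample exceeded 23411 RPM, in sciatic nerve, and the median over the 71 other samples was 929 RPM. Brain samples thus varied by less than 1 doubling in the sum.

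cfa-miR-127, 1 of the miRNAs antisense to the retrotransposon-derived gene RTL1, made up most of that sum, with 43461, 46992, 33178, 54739 and 44471 RPM. The next tissue was sciatic nerve, at a median of 17166 RPM (log2 fold change 4.99, SE 0.37, edgeR adjusted p = 9.32e-20). Its neighbours antisense to the same gene were less abundant. cfa-miR-433 had 478, 442, 92.8, 818 and 364 RPM and hsa-miR-431-3p had 328, 258, 112, 263 and 166 RPM, with maxima of 95.7 and 13.4 RPM elsewhere, again in sciatic nerve. Both lists of values place Brain 3 lowest, and for cfa-miR-433 its level was just inside the range of sciatic nerve. cfa-miR-432 had 769, 782, 169, 1763 and 611 RPM and hsa-miR-136-3p had 956, 510.4, 917, 621 and 256 RPM.

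Within the large cluster named for miR-379 and miR-410, cfa-miR-411 had 13818, 10432, 9113, 8116 and 5765 RPM, cfa-miR-410 had 8432, 7603, 4936, 8879 and 4959.5 RPM and cfa-miR-380 had 2953, 2774, 1762, 1828 and 1063 RPM. All brain samples lay above all other samples for these 3 (log2 fold change 4.34, SE 0.33, edgeR adjusted p = 2.00e-19 for the first). cfa-miR-381 had 2693, 2582, 4417, 2045 and 1304 RPM and cfa-miR-889 had 1762, 1171, 1369, 1759 and 877 RPM, the former overlapping skeletal muscle and the latter not. cfa-miR-134, which limits dendritic spine growth, was rarer, at 34.4, 23.6, 6.88, 37.3 and 24.3 RPM (log2 fold change 4.24). In the gene table of another dog assembly, all 24 tested miRNAs of the genes from MIR379 to MIR410 were higher in brain, as were 4 of 5 from MIR493 to MIR136, and the exception was miR-493. Of the 24, 20 were called higher with DESeq2 and 22 with the other samples as 1 group.

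cfa-miR-493 had 3.82, 4.66, 0.982, 2.03 and 0.434 RPM and hsa-miR-493-5p had 2.54, 8.08, 1.96, 6.10 and 6.95 RPM, against medians of 17.7 and 44.8 RPM in sciatic nerve. Their log2 fold changes were near 0 (0.18 and 0.12), while every other tested member of the region had one of at least 2.11.

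Further groups of genes with known imprinting or shared transcripts were high in brain. cfa-miR-335 and hsa-miR-335-3p, from an intron of the imprinted gene MEST, had 509, 269, 271, 466 and 171 RPM and 546, 379.8, 201, 453 and 221 RPM, with testis next at medians of 86.7 and 106 RPM. The trio of neighbouring genes MIR99B, MIRLET7E and MIR125A was higher throughout. cfa-miR-125a had 11179, 8247, 15939.7, 14407 and 9003 RPM, cfa-miR-99b had 6701, 4802, 7467, 7487 and 5914 RPM and cfa-let-7e had 5563, 5074, 7634, 7000.3 and 3342 RPM, and in each all 5 brain samples exceeded all others (log2 fold changes 2.34, 1.82 and 2.44). The next tissue was lung for cfa-miR-99b and sciatic nerve for the others.

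miRNAs within introns of neurotransmitter receptor genes were also examined. The 12 tested sequences from introns of HTR2C, GABRA3 and GABRE, which encode a serotonin receptor and 2 GABA receptor subunits, divided by host gene. The 9 from HTR2C and GABRA3 were higher in brain and the 3 from GABRE, cfa-miR-224, cfa-miR-452 and hsa-miR-452-3p, were lower by edgeR (log2 fold changes -1.02, -1.49 and -1.29), although with library sizes alone none of these 3 was called lower, and cfa-miR-224 was not called without Brain 4 or Brain 5 at -0.74 and -0.88. With DESeq2 4 of the 9 were called higher, and cfa-miR-448, hsa-miR-1264, hsa-miR-1911-5p, rno-miR-448-5p and rno-miR-764-3p were not. No read of cfa-miR-448, hsa-miR-1264, rno-miR-448-5p and rno-miR-764-3p fell in 14, 12, 15 and 15 of the other tissues. These 4 passed the filter on reads through brain alone, so their higher calls are no separate support. The median log2 fold change over all 12, higher and lower, was 5.72, and with limma it was 2.58.

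hsa-miR-1298-5p, the most abundant of the HTR2C group, had 246, 109, 2225, 148 and 202 RPM, and no other sample exceeded 17.3 RPM (log2 fold change 9.54, SE 0.46, edgeR adjusted p = 3.40e-25). Brain 3 was about an order of magnitude above the other brain samples. hsa-miR-1911-5p had the same order at its top, with 11.5, 4.97, 75.6, 4.74 and 7.39 RPM. cfa-miR-448 and hsa-miR-1264 had 20.4, 24.6, 11.8, 28.5 and 19.5 RPM and 22.9, 9.33, 6.38, 39.3 and 15.2 RPM, and these were not highest in Brain 3. Outside brain they had at most 0.493 and 0.859 RPM, never more than 3 reads in a library, and their brain means were at least 4.58 and 4.07 times the mean level of 3 reads in the other libraries. cfa-miR-105a, from GABRA3, had 304, 312, 23.1, 323 and 101 RPM, and Brain 3 lay within the range of the other tissues, which reached 29.6 RPM (log2 fold change 5.61, SE 0.35, edgeR adjusted p = 5.18e-23).

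Choroid plexus and ependyma, the secretory and ciliated epithelia of the ventricles, were represented by 10 miRNAs. By edgeR 8 of 10 were higher and none lower, with a median log2 fold change of 2.90, but this list depended on 1 sample and on the reference. Without Brain 3 the count was 5 and the median 0.94, and with the 71 other samples as 1 group it was 1 higher, 1 lower and a median of -2.43. With limma 4 were higher. cfa-miR-204, from an intron of the channel gene TRPM3, had 5411, 3927, 18388, 8209 and 2833 RPM, with kidney next at a median of 7234 RPM (log2 fold change 4.09, SE 0.25, edgeR adjusted p = 9.67e-24), and was not called with the other samples as 1 group. cfa-miR-34c, a miRNA of multiciliated cells, had 53.4, 133, 1939, 21.01 and 161 RPM. Testis, where it is known from germ cells, reached a median of 49237 RPM, and every other tissue had a median of at most 63.3 RPM. cfa-miR-34b had 0, 4.04, 97.7, 0 and 7.82 RPM and cfa-miR-449a, which was not called, had 0, 3.73, 34.4, 0.678 and 3.48 RPM. The calls of cfa-miR-34c and cfa-miR-34b were lost without Brain 3, at log2 fold changes of 0.69 and 0.41, and with the other samples as 1 group these were -2.97 and -2.79. Brain 3 was the highest brain sample for all 4, and for cfa-miR-34c it exceeded the next by more than a factor of 5.

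The most abundant miRNA of every brain sample was cfa-miR-181a, with 155612, 178387, 169188, 214686 and 372666 RPM, or 15.6 to 37.3% of the reads. It was higher than in the mean of the other tissues (log2 fold change 1.82, SE 0.23, edgeR adjusted p = 9.07e-11) but overlapped single samples elsewhere, since 1 thymus sample reached 500018 RPM. All 6 tested members of the miR-181 family were higher in brain, with a median log2 fold change of 2.52. cfa-miR-181c, which comes from another gene, had 8619.9, 8548, 55257, 7937 and 7791 RPM. Its other arm hsa-miR-181c-3p had 841, 734, 1455, 731 and 509 RPM, so both arms were highest in Brain 3, by unequal margins. Because the members are near-identical and reads with up to 10 genomic locations were kept, how reads were divided among them is uncertain.

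Of the other abundant miRNAs, cfa-miR-9, cfa-miR-128, cfa-miR-92b and cfa-miR-127 are given above and cfa-miR-143 with the smooth muscle miRNAs below. cfa-miR-26a had 51632, 48429, 134657, 45418 and 40128 RPM and a log2 fold change of 0.01 (SE 0.25), and Brain 3 again stood apart. Without Brain 3 it was called lower, at a log2 fold change of -0.63. cfa-let-7a had 30201, 32028, 51042, 35283 and 36390.5 RPM and was not called (log2 fold change 0.12, SE 0.17, edgeR adjusted p = 0.543), and cfa-miR-191 had 40752, 33545, 21668, 57787 and 51025 RPM and was not called either (log2 fold change -0.30, SE 0.25, edgeR adjusted p = 0.286). cfa-miR-22 had 41968, 35305, 15823, 33417 and 13732 RPM and was lower (log2 fold change -1.28, SE 0.27, edgeR adjusted p = 1.91e-05), though not with library sizes alone.

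In the let-7 family 5 of 14 tested sequences were higher and 2 lower with a median log2 fold change of 0.20, close to that of all miRNAs, whereas with library sizes alone 12 were higher and 0 lower, and with DESeq2 size factors 3 and 3. cfa-let-7e led with the value given above and cfa-let-7g had 4883, 4430.4, 8424, 5274 and 3367 RPM (log2 fold change -0.52), lower with TMM and higher with library sizes alone at 0.54. All 9 sequences of miR-99, miR-100 and miR-125 were higher, with a median of 1.67, but only 3 with the other samples as 1 group. hsa-miR-125b-2-3p was the steadiest of them, at 1559, 1449, 1545, 1534 and 1454 RPM. Of the miR-30 and miR-29 families 2 of 17 were higher and 5 lower (median -0.27), a balance that turned to 11 higher and none lower with library sizes alone. cfa-miR-30a had 31979, 23168, 17212, 20955 and 17394 RPM (log2 fold change -1.04), and it was not called with library sizes alone, at 0.13.

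Of 11 tested reference miRNAs, sequences often used as normalizers, 3 were higher and 4 lower (median -0.53), with library sizes alone 4 were higher and none lower, and with the other samples as 1 group 1 was higher and 3 lower. cfa-miR-103 and cfa-miR-107, from introns of pantothenate kinase genes, were higher at 7085, 7716, 6635, 8691 and 3565 RPM and 2332, 2352, 1959, 2487 and 871 RPM (log2 fold changes 0.79 and 1.25), and with the other samples as 1 group neither was, at 0.49 and -0.072. Their plasma medians were 5770 and 5365 RPM, the latter above every brain sample. cfa-miR-16 was lower at 4608, 3929, 10726, 3936 and 3861 RPM (log2 fold change -1.54) but not called with library sizes alone, at -0.55, with plasma highest at a median of 37816 RPM.

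**Figure D3:**
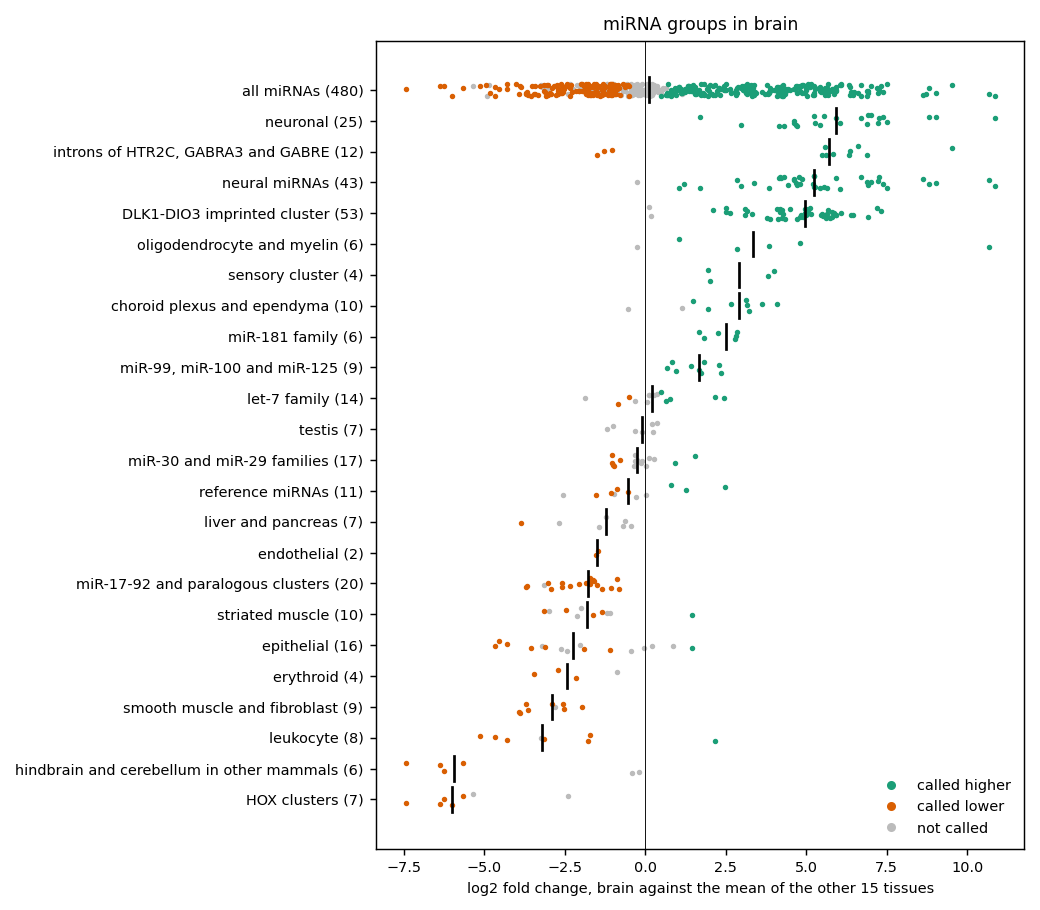
Log2 fold change of each tested miRNA, brain against the mean of the other 15 tissues, with 1 row per miRNA group (number tested in brackets) ordered by its median, which is the black bar, and colour by edgeR call. The neuronal list lies highest at a median of 5.92 and the HOX clusters lowest at -6.01, against 0.13 for all 480 miRNAs.

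In the other direction, the miRNAs of the HOX gene clusters were the lowest group in brain. Of 7 tested sequences 5 were lower and none higher, with a median log2 fold change of -6.01. Their summed level was 2103, 2371, 1044, 2942 and 3356 RPM in Brain 1 to 5, and no other sample in the atlas was below 6277 RPM. cfa-miR-10a, encoded next to HOXB4, had 302, 541, 192, 413 and 663 RPM, while the other samples ranged from 1488 to 150298 RPM without overlap (log2 fold change -7.44, SE 0.80, edgeR adjusted p = 5.46e-13). cfa-miR-10b, next to HOXD4, had 1802, 1828, 851, 2526 and 2693 RPM, so that the highest brain samples overlapped the lowest other sample at 2059 RPM, and its median in kidney was 445638 RPM (log2 fold change -6.38, SE 0.64, edgeR adjusted p = 4.11e-14).

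cfa-miR-196b had 0, 0.622, 0.491, 1.36 and 0.434 RPM, at most 3 reads in any brain library, against a median of 558 RPM in colon, and the mean of the other samples was at least 75.9 times the level of 3 reads in brain. cfa-miR-196a had 0, 0.622, 0, 1.36 and 0 RPM, against 473 RPM in kidney. It was not called by edgeR, 1 other tissue had no read of it, and the corresponding bound was 63.4. The 6 sequences listed as markers of hindbrain and cerebellum in other mammals included those of miR-10, and 4 of 6 were lower (median -5.95). The remaining members cfa-miR-195 and cfa-miR-497 had 658, 454, 1378, 754 and 335 RPM and 365, 429, 918, 169 and 119 RPM and were not called. With library sizes alone they were called higher, and without Brain 3, in which both were highest, they were called lower at log2 fold changes of -1.001 and -0.983.

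**Figure D4:**
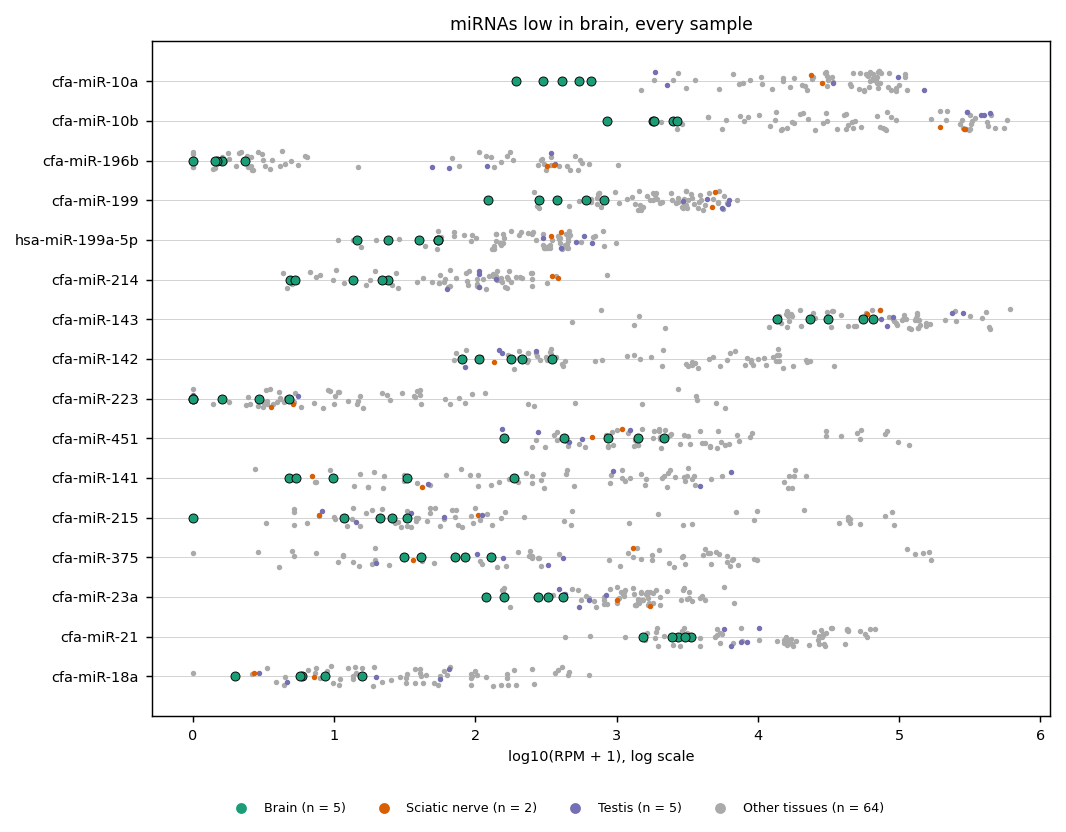
Level of 16 miRNAs low in brain in every sample, as log10(RPM + 1) on the horizontal axis (a log scale), with 1 row per miRNA and points for brain, sciatic nerve, testis and the 64 samples of the other tissues. Brain lies to the left of all others for cfa-miR-10a alone, and for cfa-miR-143 and cfa-miR-451 the brain samples lie inside the range of the rest.

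miRNAs of vessel walls and connective tissue were lower in brain. Of 9 tested smooth muscle and fibroblast miRNAs 8 were lower and none higher, with a median log2 fold change of -2.89. cfa-miR-199 had 609.5, 809, 282, 381 and 123 RPM and at least 259.7 RPM in every other sample (log2 fold change -3.64, SE 0.38, edgeR adjusted p = 1.24e-13). cfa-miR-214, made from the same transcript, had 12.7, 23.3, 3.93, 21.01 and 4.34 RPM and hsa-miR-199a-5p had 53.4, 53.2, 23.1, 39.3 and 13.5 RPM, with Brain 3 and Brain 5 lowest in each (log2 fold changes -3.93 and -3.90). Reads of the near-identical miR-199a and miR-199b may be shared. cfa-miR-143, the most abundant of the list, had 65444, 55575, 13766, 31248 and 23372 RPM and overlapped many other samples (log2 fold change -1.97, SE 0.43, edgeR adjusted p = 4.85e-05), and with library sizes alone it was not called. cfa-miR-145, from the same gene cluster, had 636, 338, 144, 547 and 137 RPM (log2 fold change -2.54, SE 0.50, edgeR adjusted p = 6.93e-06).

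The endothelial cfa-miR-126, from an intron of EGFL7, had 12722, 10172, 5758, 13577 and 5306 RPM, against a median of 46479.9 RPM in lung (log2 fold change -1.47, SE 0.31, edgeR adjusted p = 2.14e-05). Both arms of miR-126 were called lower with TMM and neither with library sizes alone, and the median of the 2 was -1.51. In RPM their sum had a brain median of 11434, against 10783 over the other samples, and brain ranked 8 of 16 tissues. Most blood cell miRNAs were called lower too. Of 8 tested leukocyte miRNAs 6 were lower, 1 was higher and 1 was not called (median -3.20). With library sizes alone 4 were lower. In summed RPM brain ranked 10 of 16 tissues, at a median of 3234 RPM. The lowest tissue was kidney at 488 RPM and the highest was ileum at 24623 RPM. cfa-miR-142 had 351, 214, 106, 177 and 79.1 RPM with a median of 22440.2 RPM in plasma (log2 fold change -4.31, SE 0.62, edgeR adjusted p = 6.59e-09). The granulocyte miRNA cfa-miR-223 had 3.82, 0.622, 1.96, 0 and 0 RPM against 3686 RPM in bone marrow (log2 fold change -4.68, SE 0.63, edgeR adjusted p = 8.23e-10).

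cfa-miR-155 and cfa-miR-150, of activated and mature lymphocytes, had 58.5, 102, 31.4, 108 and 56.5 RPM and 179, 153, 54.5, 162 and 50.4 RPM (log2 fold changes -3.16 and -1.73), the latter not called with library sizes alone, at -0.52. The exception was cfa-miR-146b, which was higher in brain at 4739, 2406, 205, 7064 and 1762 RPM (log2 fold change 2.18, SE 0.36, edgeR adjusted p = 1.81e-07) and had its top other median, 5983 RPM, in testis. With the other samples as 1 group it was not called. Of 4 erythroid miRNAs 3 were lower (median -2.43), and with library sizes alone 2 were. In summed RPM brain again ranked 10 of 16 tissues, at a median of 19365 RPM. cfa-miR-451, abundant in red cells, had 2161, 1413, 422, 873 and 159 RPM against 82461 RPM in plasma (log2 fold change -2.70, SE 0.52, edgeR adjusted p = 4.40e-06), and cfa-miR-486, also a muscle miRNA, had 29004, 17900.1, 42204, 10850.1 and 18944 RPM and was not called (log2 fold change -0.88, SE 0.52, edgeR adjusted p = 0.126), although it was lower without Brain 3 at -1.34. Among the brain samples cfa-miR-451 and cfa-miR-144 were both highest in Brain 1 and lowest in Brain 5, and cfa-miR-144 had 42.0, 20.2, 13.8, 5.42 and 2.61 RPM. The part of residual blood in these values was not tested.

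Of 16 tested epithelial miRNAs 7 were lower and 1 was higher, with a median log2 fold change of -2.23, with DESeq2 11 were lower and none higher, and with limma 13 and none. cfa-miR-192 and cfa-miR-194, of gut, liver and kidney epithelium, had 3151, 2518, 23546, 2726 and 2869 RPM and 50.9, 87.0, 429.7, 50.8 and 44.7 RPM (log2 fold changes -1.91 and -3.12). Brain 3 was far above the other brain samples for both. cfa-miR-215 had 0, 32.0, 20.1, 10.8 and 24.8 RPM against a median of 53125 RPM in jejunum (log2 fold change -4.53, SE 0.81, edgeR adjusted p = 1.06e-06). cfa-miR-375, of pancreatic islets and other endocrine cells, had 71.3, 127, 40.3, 30.5 and 84.3 RPM against 148274 RPM in pancreas (log2 fold change -4.29, SE 0.75, edgeR adjusted p = 7.26e-07).

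The miR-200 family, which keeps epithelial cells in their state, was uneven within brain. cfa-miR-141 had 3.82, 188, 4.42, 8.81 and 31.7 RPM and cfa-miR-200c had 0, 54.1, 0, 2.03 and 13.0 RPM (log2 fold changes -4.66 and -3.56). cfa-miR-429 had 5.09, 1278, 0.982, 4.07 and 115 RPM and was called higher (log2 fold change 1.46, SE 0.65, edgeR adjusted p = 0.0401), although it was called lower with limma at -1.72, while hsa-miR-200b-3p from the same cluster had 10.2, 901, 2.46, 8.13 and 147 RPM and was not called. Without Brain 2 no epithelial miRNA was called higher. In all 4 of these miRNAs Brain 2 and Brain 5 exceeded the other 3 brain samples.

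The same 2 brain samples were high in the sensory cluster of MIR183, MIR96 and MIR182, known from photoreceptors, the pineal gland and other sensory organs. cfa-miR-182 had 307, 82068, 255, 249 and 13005 RPM in Brain 1 to 5, cfa-miR-183 had 29.3, 9871, 16.7, 26.4 and 2107 RPM and cfa-miR-96 had 0, 41.3, 0, 0 and 10.4 RPM. Brain 2 exceeded all 71 other samples for cfa-miR-182, whereas Brain 1, 3 and 4 lay near the median of the other tissues. All 4 tested sequences were called higher (median 2.91, and log2 fold change 3.80, SE 0.44, edgeR adjusted p = 6.81e-12 for cfa-miR-182), yet with DESeq2 2 were, with limma none was, and without Brain 2 only 2 of 3 were. The exact rank-sum test gave cfa-miR-182 an adjusted p of 0.255, and 3 of the 5 brain samples were not high.

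The miR-17-92 cluster and its paralogs, known for their activity in dividing cells, were lower as a group. Of 20 tested sequences 19 were lower and none higher, with a median log2 fold change of -1.79, and with library sizes alone 8 were. By neighbouring genes, all 6 miRNAs from MIR17 to MIR92A-1 were lower with a median of -2.98, all 7 from MIR363 to MIR106A with a median of -1.85 and all 3 of MIR106B, MIR93 and MIR25 with a median of -1.71. With library sizes alone 6, 3 and none of them were lower. cfa-miR-18a had 7.63, 4.97, 0.982, 14.9 and 4.78 RPM against a median of 408 RPM in jejunum (log2 fold change -3.70, SE 0.61, edgeR adjusted p = 1.99e-07). cfa-miR-92a, the most abundant, had 3087, 4826, 2238, 4183 and 7420.1 RPM (log2 fold change -1.85, SE 0.29, edgeR adjusted p = 6.18e-08). Brain 5 was highest for cfa-miR-92a, as it was for the same-seed cfa-miR-92b, and Brain 3 was lowest for both. How reads of near-identical members such as miR-17 and miR-106a were divided is uncertain.

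The cluster of MIR23A, MIR27A and MIR24-2 was lower with a median of -2.63 and its paralog of MIR24-1, MIR27B and MIR23B with a median of -1.06. cfa-miR-23a had 324, 278, 117, 414 and 159 RPM and at least 152 RPM in every other sample (log2 fold change -3.51, SE 0.33, edgeR adjusted p = 1.79e-15), whereas cfa-miR-27b, the most abundant of the 2 clusters, had 27160.2, 22543, 15461, 22286 and 33359.8 RPM (log2 fold change -0.90, SE 0.24, edgeR adjusted p = 5.63e-04). With library sizes alone 2 of 3 miRNAs of the first cluster were lower and none of the second, whose median was then 0.053. cfa-miR-21, a miRNA of growth and inflammation, had 3350.5, 2739, 3064, 2483 and 1534 RPM, with a median of 57124 RPM in ileum and at least 434 RPM in each other sample (log2 fold change -3.10, SE 0.40, edgeR adjusted p = 1.93e-10). cfa-miR-148a, which is very abundant in pancreas at a median of 406344 RPM, had 3703, 3936, 2062, 2597 and 1538 RPM (log2 fold change -3.33, SE 0.30, edgeR adjusted p = 3.98e-16). cfa-miR-152 of the same family had 12.7, 16.2, 7.37, 35.9 and 6.08 RPM (log2 fold change -3.04, SE 0.46, edgeR adjusted p = 2.51e-08).

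Some miRNAs that mark other organs were at or near 0 in brain. In all, 13 miRNAs had at most 3 reads in every brain library and a median above 100 RPM in another tissue. The largest bounds were those of cfa-miR-802, at 2512 RPM in pancreas and on average at least 135 times above brain, and of the gonadal cfa-miR-202, at 3340.3 RPM in testis and at least 102 times above. Others were cfa-miR-508b, cfa-miR-8831 and cfa-miR-8908b of testis, cfa-miR-147 of colon, hsa-miR-223-5p of bone marrow and hsa-miR-122-3p of liver, at 659.8, 268, 456, 110.3, 141 and 838 RPM in those tissues. These bounds compare the mean of the 71 other samples with the level of 3 reads in brain.

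cfa-miR-122, the main miRNA of hepatocytes, had 0, 1.24, 0, 1.36 and 0.434 RPM in brain against 22008 RPM in liver (log2 fold change -3.86, SE 0.76, edgeR adjusted p = 6.72e-06). Its call was lost without Bone Marrow 3 or Plasma 2, after which a whole tissue had no read of it, although the log2 fold change was then -3.53 and -3.72. It was the 1 miRNA of 7 on the liver and pancreas list to be called by edgeR (median -1.21), while DESeq2 called 3 lower, limma 6, and the fit with the other samples as 1 group 6 with a median of -8.22. Of 10 striated muscle miRNAs 4 were lower and cfa-miR-206 was higher (median -1.81), while 9 were lower with the other samples as 1 group, 7 with DESeq2 or limma and 1 with library sizes alone. cfa-miR-206 had 0, 0.933, 9.33, 0 and 1.30 RPM, so its call rests on few reads, was lost without Brain 3 at -0.27 and turned to -0.14 with limma, with no read in 6 of the other tissues and a median of 276 RPM in skeletal muscle. cfa-miR-133a had 265, 274, 115, 234 and 53.0 RPM against 80340.0 RPM in heart (log2 fold change -2.47, SE 0.64, edgeR adjusted p = 4.81e-04), and cfa-miR-499 had 39.4, 43.2, 18.2, 46.1 and 16.9 RPM (log2 fold change -1.33, SE 0.41, edgeR adjusted p = 0.00297). Neither was called with library sizes alone, at -1.19 and -0.14, and cfa-miR-499 not after thinning either, at -0.56. None of 7 testis miRNAs was called by edgeR (median -0.11), at an unadjusted p under 0.05 none either, and with the other samples as 1 group 2 were lower. Their summed level was at most 3.39 RPM in a brain sample and 5124 RPM in the median testis sample.

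Conversely, 12 miRNAs were detected in brain alone, none with more than 37 reads in a library. The most abundant were rno-miR-448-5p at 2.54, 3.42, 1.47, 25.1 and 7.39 RPM and rno-miR-764-3p at 6.36, 7.15, 0.982, 14.2 and 14.8 RPM, both from HTR2C introns, and rno-miR-3552 at 5.09, 7.15, 0.982, 11.5 and 8.69 RPM. At these depths their absence elsewhere cannot be told from low levels, because 3 reads correspond to up to 19.0 RPM in the smallest library.

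The 2 arms of a hairpin mostly shared their direction. Among 120 pairs of tested mature sequences from 1 hairpin number, both were higher in 45, both were lower in 27, and the calls were opposite in 3. These were miR-1307, miR-6516 and miR-671. cfa-miR-1307 was higher at 137, 150.4, 94.8, 159 and 81.2 RPM and hsa-miR-1307-5p lower at 329.6, 251, 307, 130.1 and 123 RPM (log2 fold changes 0.92 and -1.12), the latter not called without Brain 4 at -0.96 or with library sizes alone at -0.065. cfa-miR-671 was higher at 69.99, 88.6, 29.5, 74.5 and 73.4 RPM and hsa-miR-671-5p lower at 8.91, 3.42, 1.47, 4.07 and 3.48 RPM (log2 fold changes 1.03 and -0.98), and the latter call was lost without Brain 2, 3 or 4, at -0.91, -0.82 and -0.91. These differences were small beside those of the neuronal miRNAs, and the difference between the arms was not tested.

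Sciatic nerve was most often the tissue next to brain. For the 44 miRNAs whose brain samples lay above all others, the highest other sample was from sciatic nerve in 18 and from testis in 10. For the 172 miRNAs with a brain median above 100 RPM, the highest other tissue median was that of sciatic nerve in 50, plasma in 25 and testis in 21. Named after their values were seen, hsa-miR-744-5p is an example, with 2251, 1977, 1487, 2283 and 1499.7 RPM in brain and a median of 1076 RPM in sciatic nerve (log2 fold change 2.43, SE 0.26, edgeR adjusted p = 3.91e-13), and hsa-miR-769-5p is one for testis, with 5851, 4139, 1083, 4014 and 812 RPM and a median of 539 RPM (log2 fold change 3.35, SE 0.19, edgeR adjusted p = 3.22e-25). With the sciatic nerve left out, 50 miRNAs in place of 44 separated brain from the rest.

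The brain samples also differed from each other, as described here for the 172 miRNAs with a brain median above 100 RPM. Their median SD of log2(RPM + 1) among the brain samples was 0.673. In Brain 3, 18 of these miRNAs were more than 2-fold above the brain median and 55 more than 2-fold below it. In Brain 5, 4 were above and 42 below. Brain 4 had 17 above and 2 below, Brain 1 had 3 and 2, and Brain 2 had 2 and 0. Of the 76 enriched miRNAs, 43 were lowest in Brain 3 and 26 in Brain 5, while 30 were highest in Brain 4 and 27 in Brain 1. Of the 32 enriched miRNAs that overlapped another tissue, 24 were lowest in Brain 3, and without Brain 3 the number of miRNAs with all brain samples above all others rose from 44 to 61.

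The miRNAs low in Brain 3 included, beside cfa-miR-132, cfa-miR-212, cfa-miR-137 and cfa-miR-138a, hsa-miR-139-5p from an intron of the phosphodiesterase gene PDE2A with 1144, 996, 20.1, 2095 and 354 RPM, hsa-miR-873-3p with 199, 129.9, 5.89, 176 and 116 RPM and cfa-miR-504 from an intron of FGF13 with 261, 144, 11.8, 321 and 103 RPM. cfa-miR-124 and cfa-miR-9 did not follow this pattern, since Brain 3 was near the top for both. High in Brain 3 were cfa-miR-34c, hsa-miR-1298-5p, cfa-miR-204, cfa-miR-181c, cfa-miR-192 and cfa-miR-26a. The region of each sample is not given in the sources used here, and its part in these differences was not tested.

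Brain 5 was set apart by cfa-miR-219-3p and cfa-miR-181a, in which it was highest, and by cfa-miR-218, cfa-miR-885 and cfa-miR-451, in which it was lowest. Brain 1 had 28.0 RPM of cfa-miR-425 against 176 to 347 RPM in the other brain samples. Brain 4 led in the miR-129 sequences and in cfa-miR-299, at 22.9, 32.0, 35.9, 163 and 19.5 RPM.

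**Figure D5:**
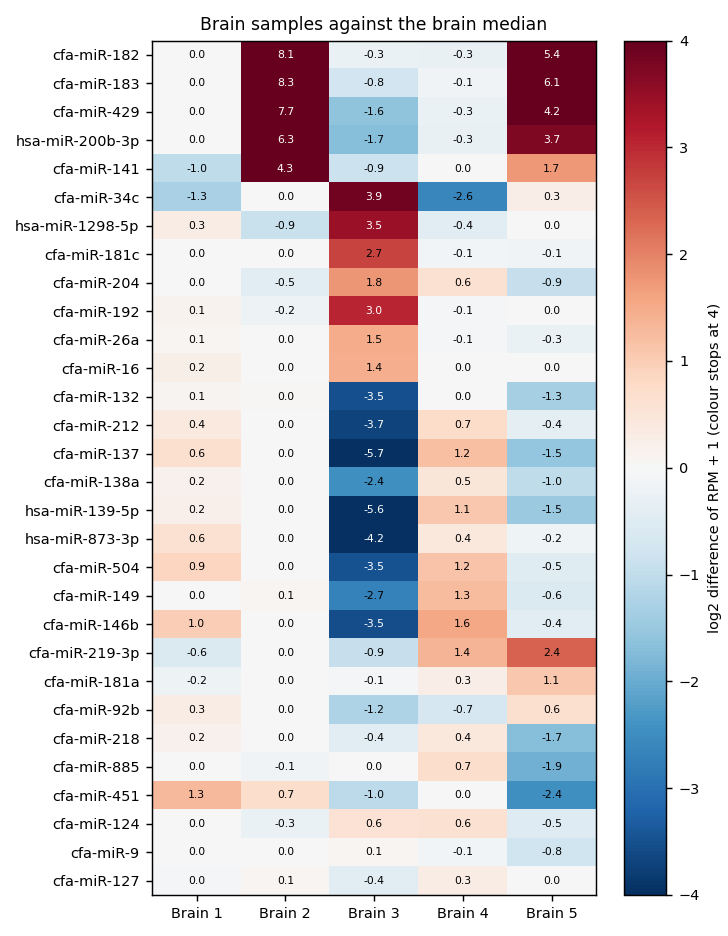
Difference of each brain sample from the median of the 5 brain samples, as log2 of RPM + 1, for 30 miRNAs (rows) in Brain 1 to 5 (columns), with the value printed in each cell and the colour scale stopped at 4 in either direction. Brain 2 and Brain 5 are high for cfa-miR-182, cfa-miR-183 and cfa-miR-429, Brain 3 is high for cfa-miR-34c and low for cfa-miR-137, and cfa-miR-124, cfa-miR-9 and cfa-miR-127 vary little.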

How the data were processed

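Small RNA libraries of 77 labelled samples were considered. 1 labelled colon sample had no values in the tables used here, and 1 sample name in the tables matched no label and was left out. The authors aligned reads with OSA 4 to CanFam 3.1, allowing no mismatches and at most 10 genomic locations, and assigned a read to a miRBase miRNA when they overlapped by at least 70%. The deposited read counts are whole numbers per miRNA and sample, and the deposited RPM values divide them by the sample's deposited total of reads on miRNAs, times 1000000. Recomputed RPM differed by at most a relative 2.89e-09. Reads with several locations were kept, and brain counts summed to 0.132 to 0.263% more than the totals. The brain libraries held 785857 to 3217077 reads. The authors' pooled maximum RPM was not used, and mature sequences and seed families were not used here.

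Counts were tested with edgeR 4.0.16 in R 4.3.3 (TMM, 480 miRNAs kept by filterByExpr with a minimum count of 10, 1 mean per tissue, quasi-likelihood test, Benjamini-Hochberg adjustment at 0.05), as brain against the mean of the 15 other tissues. The standard error is the log2 fold change divided by the square root of F. RPM was compared by a two-sided exact rank-sum test, brain against 71 samples, with a ratio of means above 5 or below 0.2 and a level above 100 RPM, and its smallest possible p is 1.08e-07. Alternatives were other scalings and filters, DESeq2 1.42.0, limma 3.58.1, other reference samples, thinning to 158069 reads and leaving out each sample. Both tests were tested on simulated data, in which edgeR recovered changes towards lower levels in brain less often than changes of the same size towards higher levels. Tables and plots were made in Python 3.11.15 (scipy 1.17.1, numpy 2.4.6, matplotlib 3.10.9, pandas 2.3.3). miRNA genes were called neighbours within 10000 bases in the gene table of the dog assembly UU_Cfam_GSD_1.0, in which 349 of 356 dog names matched.

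Named miRNAs were the 10 of greatest fold whose brain samples lay above, or below, all others, the 10 most abundant in brain, the 10 that varied most within brain, and members of the lists. Any further ones were picked with their values in view. The miRNAs and lists were chosen with earlier results of these data known.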

Additional observations from a re-analysis of the deposited data

Results flagged for a closer look

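For 27 of the 141 named miRNAs examined, 1 brain sample lay far from the other 4, with a gap to its neighbour that made up more of the range of the 5 samples than a test for outlying values allows. Chance alone flags about 1 in 20 groups of normally distributed values, but that rate is no measure for these miRNAs. The test used RPM without a log, and some miRNAs were named because they varied most within brain or with their values in view. Brain 2 was the highest brain sample and stood apart for cfa-miR-141 (188 RPM), cfa-miR-182 (82068 RPM), cfa-miR-183 (9871 RPM), cfa-miR-200c (54.1 RPM), cfa-miR-429 (1278 RPM), cfa-miR-802 (0.933 RPM), cfa-miR-96 (41.3 RPM) and hsa-miR-200b-3p (901 RPM). Brain 3 was the highest brain sample and stood apart for cfa-miR-16 (10726 RPM), cfa-miR-181c (55257 RPM), cfa-miR-192 (23546 RPM), cfa-miR-194 (429.7 RPM), cfa-miR-206 (9.33 RPM), cfa-miR-26a (134657 RPM), cfa-miR-34b (97.7 RPM), cfa-miR-34c (1939 RPM), cfa-miR-449a (34.4 RPM), hsa-miR-1298-5p (2225 RPM) and hsa-miR-1911-5p (75.6 RPM). Brain 4 was the highest brain sample and stood apart for cfa-miR-299 (163 RPM), cfa-miR-8831 (0.678 RPM), cfa-miR-8908b (0.678 RPM), hsa-miR-129-2-3p (2846 RPM), hsa-miR-935 (392 RPM) and rno-miR-448-5p (25.1 RPM). Brain 5 was the highest brain sample and stood apart for cfa-miR-181a (372666 RPM). Brain 5 was the lowest brain sample and stood apart for cfa-miR-9 (21762 RPM). The values of cfa-miR-802, cfa-miR-8831 and cfa-miR-8908b rest on at most 3 reads in a library, the other brain samples being at 0. Brain 2 and Brain 3 accounted for most of these values. Brain 2 did so for the sensory and miR-200 clusters and Brain 3 for miRNAs of the choroid plexus and ependyma list, among others. Of the HTR2C introns, hsa-miR-1298-5p and hsa-miR-1911-5p stood apart in Brain 3 and rno-miR-448-5p in Brain 4.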

How the results depend on the processing

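The count of higher miRNAs stayed within 1.5 times of 217 under the alternatives run, from 146 with libraries thinned to the smallest to 271 with library sizes alone. The 135 lower miRNAs became 64 with library sizes alone and 78 after thinning. Thinning left 319 miRNAs to be tested in place of 480, so its counts are out of fewer miRNAs. The 76 enriched miRNAs became 41 on TMM-scaled RPM and 189 with no filter on the level, and the 26 depleted became 53 on TMM-scaled RPM, 40 with DESeq2 size factors and 15 with a ratio of medians. Brain samples lay above all others for 27 miRNAs on TMM-scaled RPM and 84 with no level filter, and below all others for 5 on TMM-scaled RPM. The cause of these changes was not tested. Leaving out each sample in turn gave 199 to 228 higher, 119 to 139 lower, 68 to 79 enriched, 13 to 28 depleted (13 without Brain 5), 43 to 61 above all (61 without Brain 3) and 1 to 2 below all others (2 without Liver 2). Among 139 named miRNAs, 75 kept their side of the threshold in every alternative run, and their sign wherever a call was made. A change of sign was counted only where the main fit or the alternative made a call. Of 11748 comparisons with an alternative, 78 lost the call, 39 gained one and 23 changed sign, with the log2 fold change in brackets in what follows. With library sizes alone these were cfa-let-7g (0.54), cfa-miR-191 (0.83), cfa-miR-195 (0.64), cfa-miR-224 (0.11), cfa-miR-27b (0.20), cfa-miR-30a (0.13), cfa-miR-497 (0.81), hsa-miR-219a-1-3p (0.78) and hsa-miR-671-5p (0.13). With the other samples as 1 group these were cfa-miR-107 (-0.072), cfa-miR-206 (-4.79), cfa-miR-34b (-2.79), cfa-miR-34c (-2.97), cfa-miR-429 (-1.07), cfa-miR-96 (-0.18) and hsa-miR-34b-3p (-2.83). After thinning these were cfa-miR-206 (-1.47). With limma these were cfa-miR-206 (-0.14), cfa-miR-429 (-1.72) and cfa-miR-96 (-0.13). Without Brain 3 these were cfa-miR-206 (-0.27) and cfa-miR-26a (-0.63). Without Brain 2 these were cfa-miR-429 (-1.23). Over the samples left out in turn cfa-miR-206 ranged from -0.27 to 1.97, cfa-miR-26a from -0.63 to 0.16 and cfa-miR-429 from -1.23 to 1.92. The limma alternative was chosen after seeing the data. Collapsing miRNAs by seed family was not run. No paired analysis was possible because the labels carry no dog or replicate number. Depth limits what can be said of levels under 3.82 RPM in Brain 1 and under 0.933 RPM in Brain 2.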
